A study of Arabidopsis thaliana with 3 samples.

Results

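The m6A sites of 10 genes of the jasmonate signalling core were examined in Arabidopsis thaliana seedlings. The genes are COI1 (AT2G39940), JAZ1 (AT1G19180), JAZ2 (AT1G74950), JAZ3 (AT3G17860), JAZ9 (AT1G70700), JAZ10 (AT5G13220), JAZ12 (AT5G20900), MYC2 (AT1G32640), MYC3 (AT5G46760) and MYC4 (AT4G17880). They were chosen by name, and a site belonged to a gene when the deposited gene name equalled its locus number. All 10 genes had at least 1 site (MYC2 only without the stricter p-value threshold given below), and together they held 74 of 120269 listed sites. What share of all annotated genes had a site was not determined. Sites named with a single gene came from 15198 genes in all. The samples were whole Col-0 seedlings kept on half-strength MS plates for 7 days at 22 °C (light for 16 of 24 h), without a mutant, a hormone or another treatment named in the labels. The 3 biological replicates formed 1 group, and no control group was available for a comparison.

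m6A was read by CAM-seq, in which polyadenylated RNA is chemically deaminated so that an unmodified adenosine is read as G, while N6-methyladenosine is still read as A. The modification level of a site is the share of reads that kept the A. Depth is the number of reads covering the site. The table gives 1 read depth and 1 count of unconverted reads at each site and names no sample. They were taken to pool the 3 replicates, which no source states outright, so no value below carries a replicate SD. The 95% Wilson intervals given in brackets cover counting error only. For a share of sites they take the sites as independent, although sites of a gene cluster in its 3′ UTR. Whole seedlings hold many cell types, and a level averaged over them cannot tell fewer methylated cells of a type from a lower level in each cell. Among organ markers, the leaf genes RCA and RBCS1A had 30 and 19 sites, and the root genes SCR and COBL9 had 7 and 1. No site was listed for the leaf gene LHCB2.1, the root gene EXPA7, the flower genes AP3 and AG or the seed gene SESA3.

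Jasmonates are lipid-derived hormones that control wound and insect defence, fertility and growth. The active form, jasmonoyl-isoleucine, brings together the F-box protein COI1 and a JAZ protein. COI1 is the substrate-binding part of an SCF ubiquitin ligase, and the JAZ protein is then degraded. JAZ proteins are repressors that bind MYC2, MYC3 and MYC4, the bHLH transcription factors of the pathway, and recruit corepressors to them. m6A in plants is found mainly in the 3′ UTR, close to the stop codon. Its usual motif is RAC, where R is A or G and the middle A is methylated. Motifs that differ from it by a single base are YAC, where Y is C or U, and RAU.

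The highest site of each gene is shown first as sequence, since the levels and motifs below refer to these adenosines. Each line gives the transcript strand from 5′ to 3′, 10 bases on either side of the site, with the 3-letter motif in capitals and T standing for U. The coordinates are TAIR10, and every deposited context of the 74 sites was identical to the RefSeq genome sequence (TAIR10.1).
COI1, chr2:16672774-16672794, minus strand: gtttccacaAACtgtgtacta
JAZ1, chr1:6623532-6623552, plus strand: ttttgtaagAACaataatttt
JAZ2, chr1:28148750-28148770, minus strand: tcccccgaaAACtcattatat
JAZ2, second site over 50%, chr1:28148622-28148642, minus strand: tttgtaagaAACatcacttgt
JAZ3, chr3:6122855-6122875, plus strand: gtggaatggAACttatgagag
JAZ9, chr1:26656960-26656980, plus strand: ttgtaggatTACattataact
JAZ10, chr5:4220623-4220643, plus strand: taaatcgtaTACtattcacga
JAZ12, chr5:7092402-7092422, plus strand: tactgaagaAACtattgtagt
MYC2, chr1:11800737-11800757, minus strand: ccggcgatgGAGattccggca
MYC3, chr5:18976281-18976301, plus strand: atatgtatgGAGtaagattaa
MYC4, chr4:9933559-9933579, minus strand: gtagttgtaAACtctattgtg

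The 5 sites with a level of at least 50% all lay in AAC motifs, in COI1, JAZ2, JAZ3 and JAZ12. They were 5 of 74 sites (6.76% [2.92 to 14.9]), against 24.7% of all listed sites. Counted by gene, the highest level reached 50% in 4 of 10 genes, against 67.6% of all genes with sites. The 74 levels ran between 3.1% and 72.3%, with a mean of 22.7% ± 16.0 (SD over sites) and a median of 19.5%. Over all listed sites the mean was 31.9% and the median 21.8%. The median of the highest level per gene was 32.8% in the 10 genes and 70.6% in all genes.

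Depth at the 74 sites had a median of 142.5 reads and a range of 22 to 872, and 71.6% of the sites had at least 100 reads. Over all sites the median depth was 107 reads, and 52.4% had at least 100. Depth bears on these sites because the listing threshold moves with it: the lowest level that could be listed was 20% at 20 reads, 6.0% at 100 reads and 2.8% at 500 reads. Of the 74 sites, 10 lay below 6.0%, and 8 of these were in JAZ12. An adenosine that is absent from the list may therefore have been methylated below this limit, or have been covered too thinly.

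**Figure D1:**
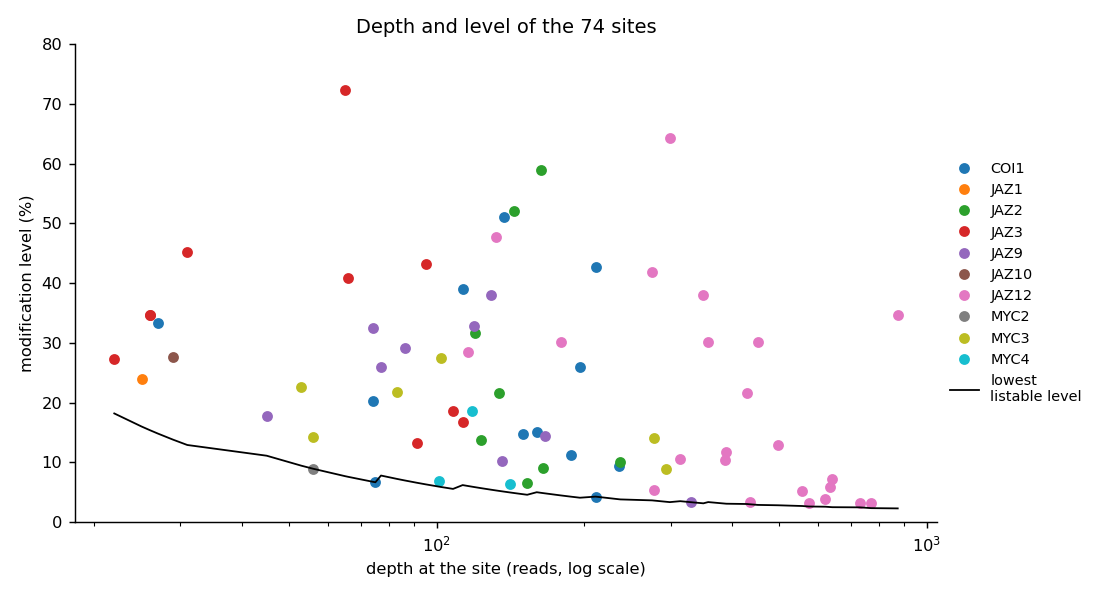
Depth of each of the 74 sites (x axis, reads, log scale) against its modification level (y axis, %), 1 colour per gene, with a black line for the lowest level that could be listed at each depth. JAZ12 fills the deep end up to 872 reads, the JAZ3 site at 72.3% has 65 reads, and the single sites of JAZ1, JAZ10 and MYC2 have 25, 29 and 56 reads.

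COI1, the receptor, lies on chromosome 2 (16672493 to 16675864, minus strand) and had 12 sites, which put it at the 80.1 percentile of all genes by number of sites. All 12 lay in the 3′ UTR, in the last of 3 exons. The site nearest to the stop codon, an AAC at +64 nt (position 16672784), was also the highest, with 51.1% of 137 reads [42.8 to 59.3]. The deepest site was a GAG at 16672722 with 9.4% of 235 reads [6.3 to 13.8]. The other levels ran between 4.3% and 42.7%, and depth between 27 and 211 reads. The GAU with 4.3% of 211 reads and the AAG with 6.7% of 75 reads were each exactly at the lowest level listable at their depth.

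Neighbouring adenosines of COI1 had unequal levels. The AAC at +64 nt is followed within 15 nt by 3 UAC sites, whose windows overlap and are shown to compare them.
COI1 at +71 nt, chr2:16672767-16672787, minus strand: caaactgtgTACtatactact
COI1 at +76 nt, chr2:16672762-16672782, minus strand: tgtgtactaTACtactttggt
COI1 at +79 nt, chr2:16672759-16672779, minus strand: gtactatacTACtttggttct
The site at +71 nt had 15.0% of 160 reads [10.3 to 21.3], the site at +76 nt 11.2% of 188 [7.4 to 16.5] and the site at +79 nt 42.7% of 211 [36.2 to 49.4]. The last interval did not overlap the other two, although the 3 sites share the UAC motif and lie within 8 nt of each other. Sites this close can share reads, which the intervals do not model, and their difference was not tested. The second highest site of the gene was this UAC, with an interval that overlapped that of the AAC at +64 nt.

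The 6 JAZ repressors held 52 of the 74 sites, and these averaged 24.2% ± 17.1 (SD). COI1 had a mean of 22.8% ± 15.5 over 12 sites, and the 3 MYC genes 15.0% ± 7.4 over 10 sites. The repressors were unequal among themselves: JAZ12 had 23 sites, JAZ3 10, JAZ9 9, JAZ2 8, and JAZ1 and JAZ10 had 1 each. All 52 sites lay in 3′ UTRs.

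JAZ12 (chromosome 5, 7090704 to 7092539, plus strand) carried more sites than any other gene of the 10. Its annotated 3′ UTR has 338 nt, close to the 344 nt of JAZ2 and the 349 nt of JAZ1, and held 6.80 sites per 100 nt. JAZ2 and JAZ1 held 2.33 and 0.29 per 100 nt, in their transcripts of greatest coding length. Only 85 genes (0.559% of all genes with sites) had 23 sites or more. JAZ12 was also the deepest, with a median of 429 reads per site, at the 88.5 percentile of all genes by median depth. How far its site count follows from depth was not tested.

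The highest JAZ12 site was the AAC at +211 nt (position 7092412), with 64.2% of 299 reads [58.6 to 69.4]. The second was a UAC at +299 nt with 47.7% of 132 reads [39.4 to 56.2]. The deepest site, a UAC at +89 nt, had 34.6% of 872 reads [31.5 to 37.9]. The lowest was a UAU at +113 nt with 3.1% of 770 reads [2.1 to 4.6]. Of 10 adenosines in RAC motifs in this 3′ UTR, 9 were listed, with levels between 10.3% and 64.2%. Sites of the same motif had unequal levels, and 2 AAC sites downstream of the highest one are shown to compare with its sequence above.
JAZ12 at +227 nt, chr5:7092418-7092438, plus strand: gtagttagtAACactgtccta
JAZ12 at +249 nt, chr5:7092440-7092460, plus strand: agtctatctAACtaatgactc
The site at +227 nt had 41.8% of 275 reads [36.1 to 47.7] and the site at +249 nt 10.5% of 314 reads [7.6 to 14.4]. Neither interval overlapped the other or that of the site at +211 nt. These sites too can share reads, which the intervals do not model, and no test was made between them.

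JAZ3 (chromosome 3, 6119707 to 6123044, plus strand) had the highest level of the 10 genes. Its AAC at +174 nt (position 6122865) had 72.3% of 65 reads [60.4 to 81.7], at the 52.1 percentile of the highest levels of all genes. The second was an AAU at +298 nt with 45.2% of 31 reads [29.2 to 62.2]. The deepest, a UAC at +143 nt, had 16.8% of 113 reads [11.0 to 24.8]. The mean level over 10 sites was 34.7% ± 17.4, against a median of 30.3% over the gene means of the table. Of the 10 sites, 7 lay above the median of all listed sites with the same 3-letter motif, against 25 of the 74 sites, which include these 7. The listing limit bears on this count at thin sites. At the AAU with 22 reads the lowest listable level was 18.2%, above the median of 17.2% for all AAU sites. That site could therefore only lie above the median. JAZ3 was the thinnest covered of the genes with several sites, at 22 to 113 reads, and its depth dropped to 22 to 26 reads at 3 sites between +199 and +219 nt. With sites under 100 reads left out, only a CAC and a UAC remained, and the highest level was 18.5%.

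JAZ2 (chromosome 1, 28148574 to 28150446, minus strand; RefSeq symbol TIFY10B) was the only one of the 10 genes with 2 sites of at least 50%. The AAC at position 28148760 had 58.9% of 163 reads [51.2 to 66.2], and the AAC at 28148632 had 52.1% of 144 reads [44.0 to 60.1]. They lay 128 nt apart, and their intervals overlapped. The deepest site, a further AAC at 28148772, had 10.1% of 237 reads [6.9 to 14.6], only 12 nt from the highest one. Of the 8 sites, 6 were AAC, with levels between 9.1% and 58.9%. The distance to the stop codon depended on the isoform, at +147 to +292 nt in the transcript with the longest coding sequence and at +323 to +468 nt in the other.

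JAZ9 (chromosome 1, 26654529 to 26657350, plus strand; RefSeq symbol TIFY7) had 9 sites and no single leading one. Its highest was a UAC at position 26656970 with 38.0% of 129 reads [30.1 to 46.6]. An AAC 8 nt downstream had 32.8% of 119 reads [25.0 to 41.6], with overlapping intervals. The deepest site was an AAU with 3.3% of 330 reads [1.9 to 5.9], the lowest of the gene and exactly the lowest level listable at that depth. The 4 RAC sites had 26.0%, 32.8%, 29.1% and 32.4%, the narrowest range among the 5 genes with at least 3 RAC sites.

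JAZ1 and JAZ10, each with a single site, were read thinly there. JAZ1 (chromosome 1, 6621777 to 6623668) had an AAC with 24.0% of 25 reads [11.5 to 43.4], where the lowest listable level was 16.0%. JAZ10 (chromosome 5, 4218786 to 4221077) had a UAC with 27.6% of 29 reads [14.7 to 45.7], where that limit was 13.8%. JAZ10 is known for splice variants that differ in their resistance to degradation, and the annotation holds 7 coding transcripts. The site lay in the 3′ UTR of all 7, between +131 and +944 nt from the stop codon. A single site was also all that 1669 genes of the table had (11.0%).

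The 3 MYC genes had the lowest mean level of the 3 roles, and none of their 10 sites reached 50%. They also had the lowest share of RAC sites, 2 of 10, and the part of motif in their mean was not tested. MYC3 (chromosome 5, 18974022 to 18976590) had 6 sites between 8.8% and 27.5%. Its highest was a GAG at +282 nt with 27.5% of 102 reads [19.7 to 36.8], and 3 more sites lay within 23 nt downstream. The second was an AAU with 22.6% of 53 reads [13.5 to 35.5]. The deepest was its one RAC site, an AAC at +153 nt, with 8.8% of 294 reads [6.1 to 12.6]. MYC4 (chromosome 4, 9933326 to 9935685) had 3 sites. The AAC at +133 nt had 18.6% of 118 reads [12.6 to 26.6], and the GAU at +197 nt 6.9% of 101 reads [3.4 to 13.6]. The deepest MYC4 site, an AAU at +181 nt, had 6.4% of 141 reads [3.4 to 11.7].

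MYC2 (chromosome 1, 11798119 to 11801407) is the best-known factor of the pathway and had the sole coding site of the 74. This GAG lay 1705 nt before the stop codon, in the first part of the coding sequence, and had 8.9% of 56 reads [3.9 to 19.3]. That was exactly the lowest level listable at 56 reads. Its p-value of 0.00025 in the binomial test lay above the stricter threshold of 0.0001, under which MYC2 had no site. None of 22 RAC adenosines in the annotated 3′ UTR of 923 nt was listed. The same held for JAZ10, with 25 RAC adenosines in 917 nt of its transcript of greatest coding length. For JAZ10 these counts depend on the isoform. Its listed site lay at +637 nt in that transcript and between +131 and +944 nt over all 7. Depth at unlisted adenosines is not given by the table, so unmethylated, weakly methylated and uncovered ones cannot be told apart.

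**Figure D2:**
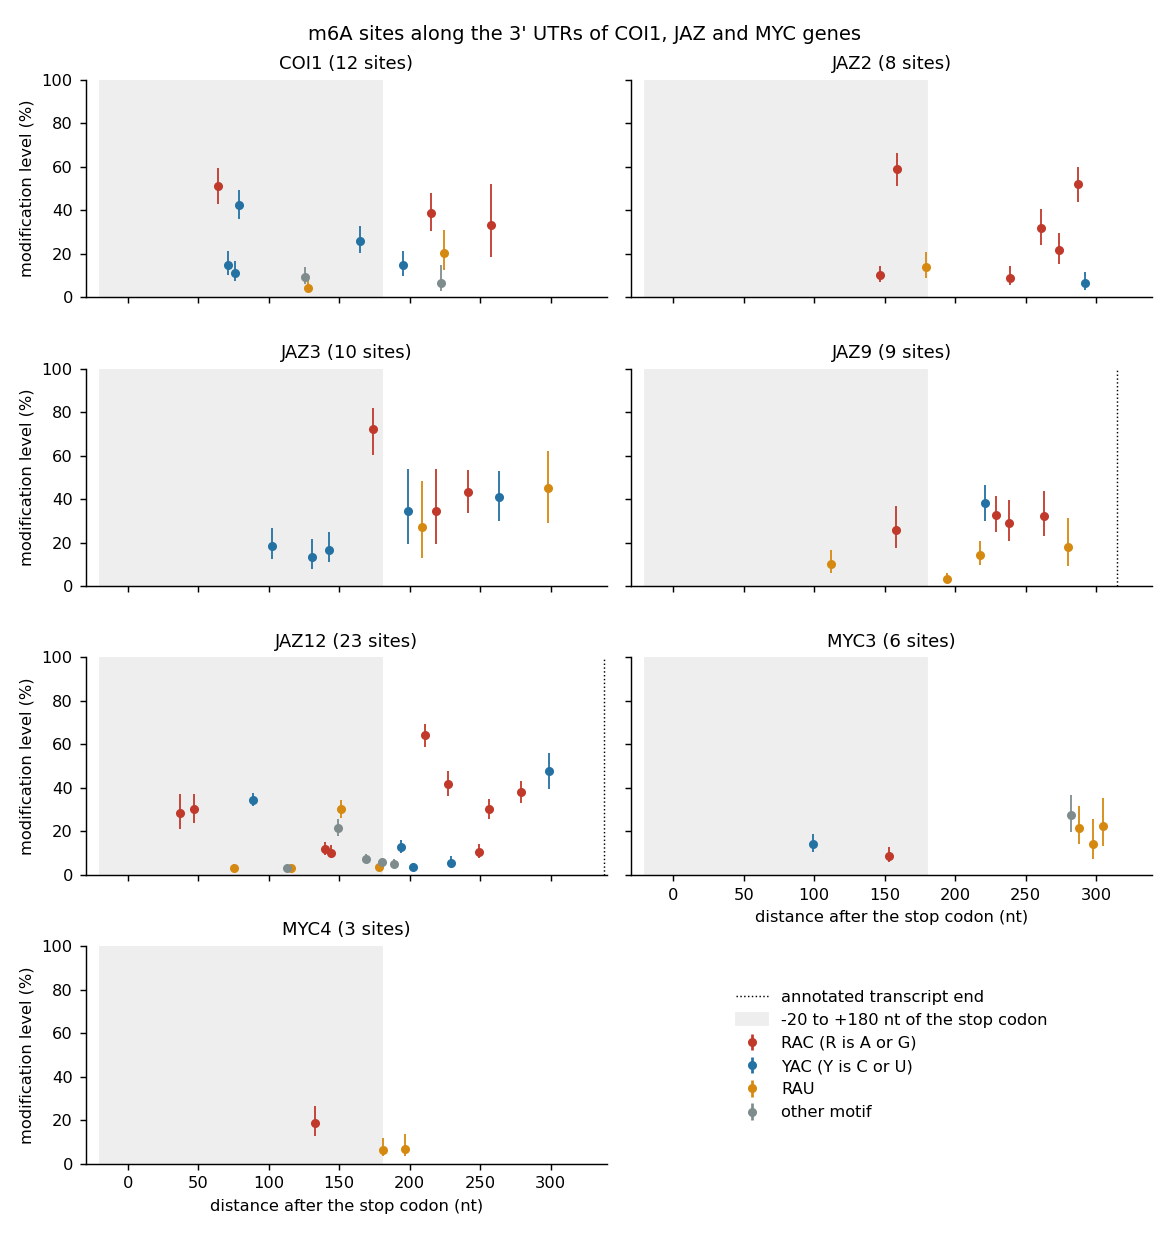
Modification level (y axis, %) against the distance after the stop codon (x axis, nt) for the 7 genes with at least 3 sites, coloured by motif class, with 95% Wilson intervals as bars. COI1 and JAZ12 have 7 of 12 and 13 of 23 sites inside the grey area of -20 to +180 nt, the other 5 genes have most of theirs beyond it, and the highest JAZ12 site lies at +211 nt.

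Ordered by the highest site, the genes ran JAZ3, JAZ12, JAZ2, COI1, JAZ9, JAZ10, MYC3, JAZ1, MYC4 and MYC2. All 45 pairs were compared by two-sided Fisher's exact tests on reads, with Benjamini-Hochberg adjustment, and 28 differed at 0.05. None of the 9 pairs of neighbours in the order did. JAZ3 exceeded JAZ12 by 8.1 points [-4.9 to 19.0] (adjusted p = 0.301, exact test), and JAZ12 exceeded JAZ2 by 5.3 points [-3.8 to 14.6] (adjusted p = 0.312, exact test). COI1 exceeded JAZ9 by 13.1 points [1.2 to 24.5], at an adjusted p of 0.0562 in the exact test. JAZ3 and COI1, which stand 3 places apart, differed by 21.2 points [6.8 to 33.7] (adjusted p = 0.0109, exact test). These tests cover counting error alone, the sites were picked by the same counts that were tested, and a gene with more listed sites offers more sites from which the highest is taken. With the deepest site of each gene in place of the highest, 19 of 45 pairs differed.

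**Figure D3:**
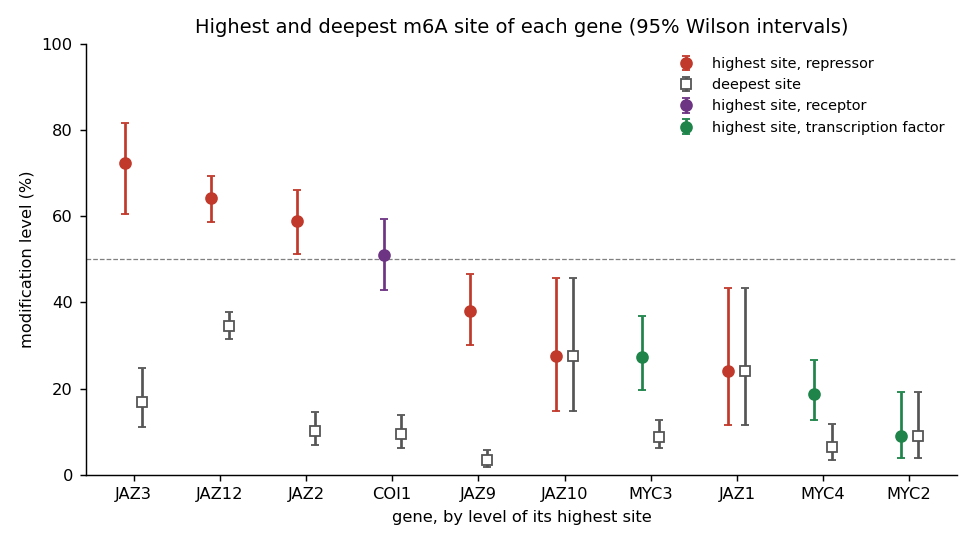
Level of the highest site (filled circles, coloured by role) and of the deepest site (open squares) of each gene, with 95% Wilson intervals and a dashed line at 50%. The 4 genes JAZ3, JAZ12, JAZ2 and COI1 have highest sites at 72.3%, 64.2%, 58.9% and 51.1%, while no deepest site is above 34.6%.

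**Figure D4:**
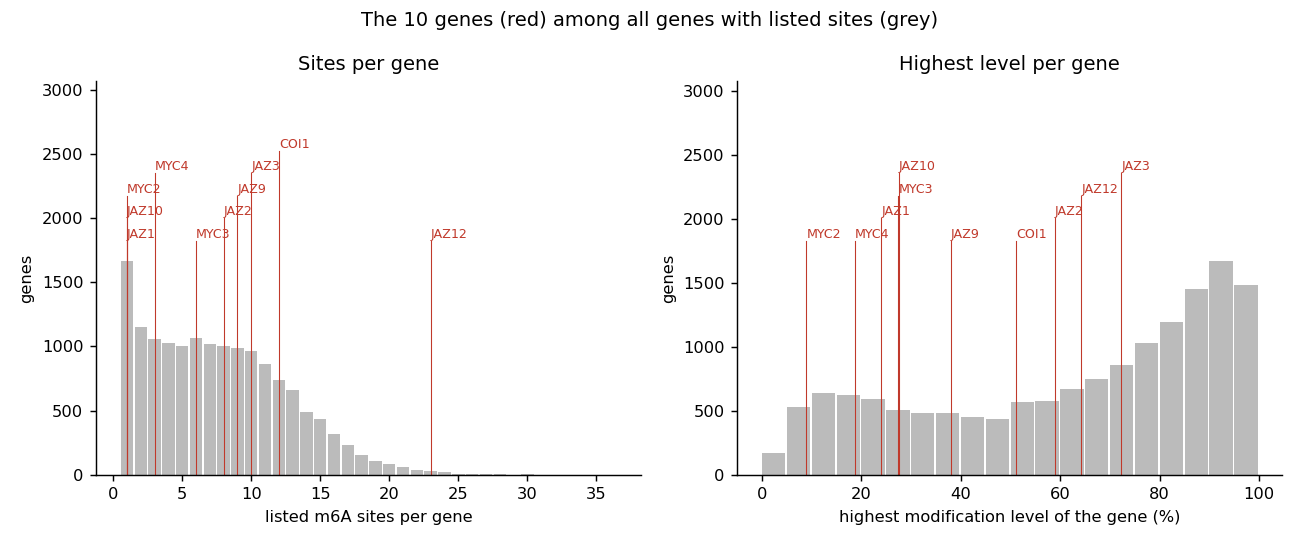
Number of listed sites per gene (left) and highest level per gene (right) for the 10 genes (red lines) and for all 15198 genes (grey bars, number of genes). JAZ12 lies at 23 sites against a median of 7 over all genes, and the highest levels of the 10 genes lie between 8.9% and 72.3% against a median of 70.6%.

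By motif, 28 of the 74 sites were RAC (37.8% [27.6 to 49.2]), against 39.3% of all sites. AAC alone made up 23 sites, UAC 15, GAU 11, AAU 7, GAC 5, CAC 4 and GAG 4. The RAC sites had a mean of 31.9% ± 17.0 (SD over 28 sites), YAC sites 22.3% ± 13.8 (19 sites), RAU sites 14.9% ± 11.5 (18 sites) and the other motifs 10.6% ± 8.3 (9 sites). Over all listed sites these means were 44.6%, 28.2%, 24.8% and 12.4%. The order of the classes was thus the same, and each class mean was lower in the 10 genes. Deeper sites can be listed at lower levels, and median depth was 142.5 reads at the 74 sites against 107 at all sites. JAZ12 gave 14 sites outside RAC, with a mean of 13.4%. Without JAZ12 the mean over all motifs was 24.1%, against 31.9% of all listed sites. The part of depth in these means was not tested. GAC, with a mean of 26.7% in the 10 genes, had no site above the median of 40.0% for all GAC sites. Within 6 of 7 genes that had both kinds, RAC sites were higher on average than the rest, by 12.0 points in MYC4 to 24.4 in COI1. In MYC3 the single RAC site lay 11.2 points below the mean of the other 5.

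**Figure D5:**
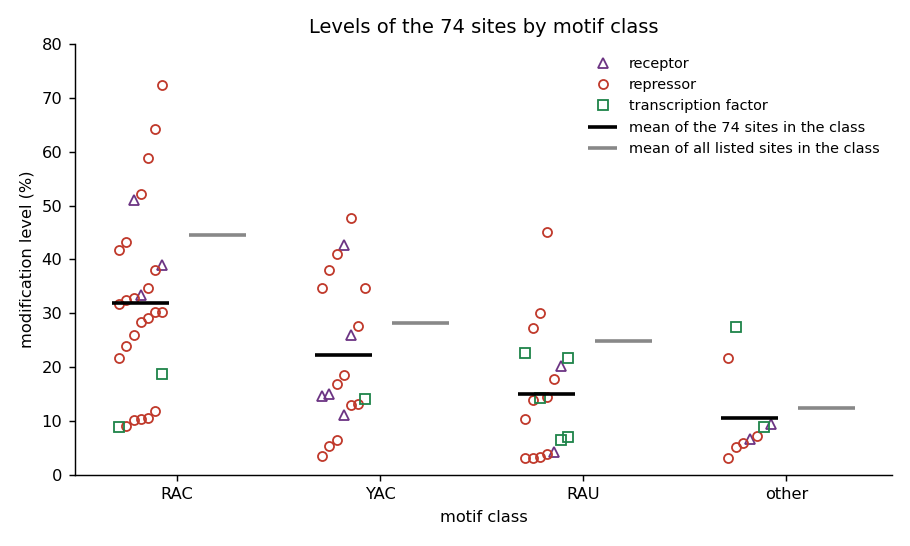
Modification level (y axis, %) of each of the 74 sites by motif class, with symbols for receptor, repressor and transcription factor genes, a black bar for the class mean in the 10 genes and a grey bar for the class mean over all listed sites. The class means in the 10 genes are 31.9%, 22.3%, 14.9% and 10.6%, each below the grey bar at 44.6%, 28.2%, 24.8% and 12.4%.

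By position, 73 of the 74 sites lay in the 3′ UTR (98.6% [92.7 to 99.8]), against 92.4% of all placed sites. All 74 were in the last exon, against 96.9%. MYC2, MYC3 and MYC4 have 1 exon each in the transcripts used, so their 10 sites could lie in no other. The median distance from the stop codon was +194.5 nt, against +111 nt over all placed sites. Between -20 and +180 nt, a window around the stop codon, lay 32 of the 74 sites (43.2% [32.6 to 54.6]), against 72.0% of all placed sites. The interval does not model that sites of a gene share a 3′ UTR. Without JAZ12 the share was 37.3% of 51 sites. The isoform changed single distances, as given for JAZ2, JAZ9 and JAZ10. JAZ9 sites lay at +112 to +280 nt in the main transcript and 55 nt closer to the stop codon in another.

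Sequence around the sites was searched for UGUA (on the transcript strand only, in the 31 bases centred on each site), a motif that has been tied to plant m6A and to polyadenylation. It was found around 36 of the 74 sites (48.6% [37.6 to 59.8]), against 26.4% of all listed sites. Windows of neighbouring sites overlap, and the 36 windows together held 25 separate UGUA copies. In JAZ3, 7 of 10 windows held the motif, in JAZ2 6 of 8 and in JAZ12 8 of 23. The match describes these letters alone.

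Shared stretches of at least 10 bases between windows of different genes were few. JAZ1 and JAZ2, close paralogues, shared the 11 bases ttttgtaagaa, which the windows of 20 listed sites in the whole table contain. It stands beside the JAZ1 site at 24.0% of 25 reads [11.5 to 43.4] and beside 2 JAZ2 sites, one at 52.1% of 144 reads [44.0 to 60.1] and one at 21.6% of 134 reads [15.5 to 29.4]. It ends on the methylated base in JAZ1 and 1 base before the higher JAZ2 site, whose line above begins with the second of the 11 bases. The lower JAZ2 site lies before the stretch. JAZ3 and JAZ12 shared the 10 bases tcagatatgt, beside sites of different motifs. The stretch was found in 8 windows of the table, which include the JAZ3 window and overlapping windows of neighbouring JAZ12 sites.
JAZ3 at +199 nt, chr3:6122880-6122900, plus strand: tcagatatgTACttgggaaaa
JAZ12 at +178 nt, chr5:7092369-7092389, plus strand: gagtggtcaGATatgtttgcc
In JAZ3 the stretch ends on the first base of a UAC with 34.6% of 26 reads [19.4 to 53.8]. In JAZ12 it holds the GAU itself, with 3.9% of 621 reads [2.6 to 5.7], and also the UAU at +180 nt, with 5.8% of 633 reads [4.3 to 8.0]. None of the 74 windows was listed a second time elsewhere in the table.

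The sites lay close enough to share reads. In JAZ3, 6 sites within 100 nt had levels that summed to 2.53 unconverted adenosines, and in JAZ12 8 sites summed to 2.41. The sums were 1.68 in JAZ9, 1.40 in COI1 and 1.21 in JAZ2. The authors removed reads with more than 3 unconverted adenosines, and also reads in which too large a share of the adenosines was unconverted. The part of that filter in these levels was not tested.

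The other genes of the pathway were taken from 6 lists of 55 genes in all, of which 31 had sites and 18 a site of at least 50% (58.1% of those with sites, beside 67.6% of all genes). Among 7 further JAZ genes, 3 had sites. JAZ11 had 15, with a highest level of 94.4% of 54 reads [84.9 to 98.1], an interval above that of the highest JAZ3 site [60.4 to 81.7]. JAZ6 had 10 sites up to 57.1% of 35 reads [40.9 to 72.0], and JAZ4 had 4 up to 60.5% of 38 reads [44.7 to 74.4]. JAZ5, JAZ7, JAZ8 and AT3G22275 had no listed site. Of 6 further bHLH and MYB factors, the MYC2-like repressors JAM1, JAM2 and JAM3 had 4, 5 and 4 sites. The highest was 42.3% of 26 reads [25.5 to 61.1] in JAM2. AT5G46830, listed in RefSeq as NIG1, and the stamen factors MYB21 and MYB24 had none.

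COI1 and the JAZ proteins work with the SCF subunits and with corepressors. Of 11 genes on this list, which also holds the Mediator subunit gene MED25, 10 had sites. In all 10 the highest level was at least 50%, beside 67.6% of all genes with sites. CUL1, the scaffold of the SCF ligase, had the most sites, 18, with a highest level of 95.5% of 489 reads [93.3 to 97.0]. TPR2, a TOPLESS-related corepressor, had the highest level, 98.5% of 65 reads [91.8 to 99.7]. The biosynthesis list had sites in 12 of 14 genes and a level of at least 50% in 3 of these 12, beside the same 67.6%. ACX1, an acyl-CoA oxidase of the peroxisomal steps, led it with 14 sites and 92.7% of 151 reads [87.4 to 95.9]. Of 11 turnover genes 3 had sites, with ILL6 and IAR3, amidohydrolases that cleave hormone conjugates, at 7 sites each. ILL6 reached 63.9% of 36 reads [47.6 to 77.5]. None of 6 response genes, among them VSP2 and PDF1.2, had a listed site. No test was made between the lists, and the depth of unlisted genes is not known from the table. The share of all annotated genes with a listed site was not determined. The counts of genes with sites in the 6 lists therefore stand without a background.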

How the data were processed

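Polyadenylated RNA of Arabidopsis seedlings (3 biological replicates, 1 group) was profiled by CAM-seq. According to the methods and the labels, the authors trimmed single-end reads with Cutadapt and took a barcode from the start of read 1. They mapped to TAIR10 with hisat2-3n (HISAT2 in the processing notes). Reads were removed that had many mismatches, more than 3 unconverted adenosines or too large a share of adenosines unconverted. Versions of these tools are not given in the sources used here. That filter can lower levels where methylated adenosines lie close together. The deposited table gives raw counts per site, reads covering the adenosine and reads still A, 1 value each with no sample name, read here as the pool of the replicates, so the depth of each replicate is unknown. The p-value deposited per site is a binomial one under a background of 1%. The table held depths of at least 20 and p-values under 0.001, the threshold that the study gives for this species. Its supplementary methods name a stricter one, which was tried as an alternative.

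Levels were computed as unconverted reads over depth, with 95% Wilson intervals. Regions came from the RefSeq annotation (TAIR10.1), in each gene by its transcript of greatest coding length. Two-sided Fisher's exact tests with Benjamini-Hochberg adjustment compared the highest sites of genes. They were tested on simulated pairs of single sites. That simulation did not pick the highest of several sites, so it does not cover this choice. Tests between the highest and second highest site of a gene are not reported, since the same counts had ranked the sites and neighbouring sites can share reads. Python 3.11.15, numpy 2.4.6, pandas 2.3.3, scipy 1.17.1 and matplotlib 3.10.9 were used. All 10 genes were named, with their highest and deepest sites and each site of at least 50%. Other pathway genes were named when they had the most sites or the highest level of their list, or belonged to the JAZ or MYC families. RefSeq paired 49 of 55 locus numbers with the symbols used in the lists. The genes and lists were chosen with earlier results of these data known. The alternatives were minimum depths of 50 and 100 reads, the stricter p-value, weighting by reads, the first listed transcript, a narrower window at the stop codon, and the deepest site in place of the highest.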

Additional observations from a re-analysis of the deposited data

How the results depend on the processing

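Of 44 values under the alternatives, 39 stayed within the margin set for them, which was 1 SD for a mean or median, the 95% interval for a share or level and a factor of 1.5 for a count. These margins are wide: the median of the highest level per gene was 44.5% with at least 50 reads, the RAC share was 48.1% weighted by unconverted reads, and 19 of 45 pairs differed at the deepest sites. JAZ1 and JAZ10 have no site with 50 reads, so no alternative gave their highest level. Some of the values could not move. A depth limit that kept the highest site of a gene left its level as it was, as for MYC2 with at least 50 reads. Counting sites also named with another gene added no site. The stricter p-value left 70 sites. It removed the only MYC2 site, and with it the sole coding site, as well as the deepest JAZ9 site and the COI1 sites at the lowest listable level. With at least 100 reads, 53 sites in 7 genes remained, of which 100% lay in the 3′ UTR and 54.7% between -20 and +180 nt of the stop codon. A window of -20 to +100 nt held 12.2% of the 74 sites. With at least 100 reads, 14 of 21 pairs of genes differed in their highest site, with JAZ1, JAZ10 and MYC2 left out, and the highest level of JAZ3 was 18.5%. No paired analysis was possible because the table has no column per replicate. Depth limits JAZ1, JAZ10 and MYC2 most, with 25, 29 and 56 reads at their single sites.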
